A study of Homo sapiens with 12 samples.

Results

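MYC, MYCN and 5 of their partners in the MYC network, MAX, MXI1, MXD4, MNT and MGA, were followed in SK-N-SH cells on surfaces of 3 stiffnesses. The 7 genes were listed by name and found in the deposited count table by their Ensembl gene identifiers, among 60664 genes in all. No measured value was used to choose them, although earlier results of these data were known when they were listed. All 7 passed the filter on low counts and were among the 17960 genes tested. They are protein-coding genes on 7 chromosomes of GRCh38: MYC (ENSG00000136997) on chromosome 8, MYCN (ENSG00000134323) on 2, MAX (ENSG00000125952) on 14, MXI1 (ENSG00000119950) on 10, MXD4 (ENSG00000123933) on 4, MNT (ENSG00000070444) on 17 and MGA (ENSG00000174197) on 15.

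MYC and MYCN are transcription factors that bind DNA only as a pair with MAX, and they switch on genes for ribosome building, metabolism and growth, many of them through the E-box sequence CACGTG. MAX also pairs with MXI1, MXD4, MNT and MGA, which bind the same kind of site and mostly repress: the MXD proteins and MNT recruit SIN3 and histone deacetylases, and MGA works within a Polycomb-type complex. In neuroblastoma, a childhood tumour of the sympathetic nervous system, MYCN amplification marks high-risk disease, and SK-N-SH is known as a line without it.

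The study asked what surface stiffness does to transcription in neuroblastoma cells. The SK-N-SH line, of human origin, holds neuron-like and flat, substrate-adherent cells, and the labels name no genetic change or drug in any group. RNA was sequenced from 4 libraries each at 1 kPa, 8 kPa and 30 kPa, where kPa (kilopascal) gives the elastic modulus of the surface, so that 1 kPa was the softest and 30 kPa the stiffest. The sources used here name neither the surface material nor the time in culture, and do not say whether the libraries came from separate cultures, so p-values measure the spread between these libraries, which may be technical.

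The libraries held 14317437 to 15896607 counts at 1 kPa, 14951116 to 25349320 at 8 kPa and 23896536 to 27820973 at 30 kPa. The totals fell into a shallow class of 5 libraries (the 4 at 1 kPa and 8 kPa replicate 1) and a deep class of 7, so depth and stiffness could be told apart only through 8 kPa replicate 1. Transcripts of the mitochondrial genome took 13.5% ± 1.59, 10.7% ± 0.553 and 12.4% ± 0.604 of counts at 1, 8 and 30 kPa (means ± SD of n = 4 per surface). Sympathetic neuroblastoma markers such as HAND2 (median 314 CPM) and DBH (55.4 CPM) were present in every library, while TH had at most 1 count in a library. Mesenchymal genes of the line such as VIM and PRRX1 were high. The 11 sympathetic markers summed to 726 to 1170 CPM at 1 kPa, 1030 to 1510 at 8 kPa and 1120 to 1290 at 30 kPa, and the 6 mesenchymal ones to 3940 to 4360, 3620 to 4310 and 3290 to 3770 CPM. The 4 immune markers summed to at most 0.646 CPM, while the 5 epithelial ones summed to 46 to 72.2 CPM, mainly KRT18 (median 37.2 CPM) and KRT8 (15.1 CPM), with KRT5 at 0 throughout. The 4 endothelial markers summed to 3.45 to 9.29 CPM at 1 kPa, 1.76 to 7.41 at 8 kPa and 1.54 to 2.19 at 30 kPa, so that the 30 kPa libraries were all below those at 1 kPa. Most of this was PECAM1 (median 3.3 CPM), while CDH5 and KDR had medians of 0. The 7 fibroblast markers summed to 1280 to 1780 CPM over all libraries, with COL1A1, LUM and PDGFRA the most abundant. The part of any shift between these cell states in the results below was not tested, and in bulk RNA fewer cells of a type and less RNA per cell cannot be told apart.

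Levels are given as CPM, which scales a gene's count to the size of its library after TMM normalization, and compared between genes only as CPM per kilobase of merged exon. On that scale MAX, the shared partner, was the highest of the 7 at 12.64 ± 0.897 CPM per kb (SD, n = 12 libraries), above 80.6% of the 17737 tested genes with a known length. MXI1 followed at 10.85 ± 0.794, MXD4 at 8.446 ± 0.726, MGA at 7.127 ± 0.391, MYC at 6.166 ± 1.65 and MNT at 4.835 ± 0.496 CPM per kb. MYCN was last at 0.4753 ± 0.111 CPM per kb, above only 13.6% of those genes.

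MAX stood above MXI1 in 12 of 12 libraries, MXI1 above MXD4 in 12, MXD4 above MGA in 11 and MNT above MYCN in 12. The neighbours MGA and MYC, and MYC and MNT, were not separated in that way: MGA was above MYC in 9 libraries and MYC above MNT in 8. The place of MYC differed by surface. It ranked below MNT by group mean at 1 kPa (4.314 against 5.345 CPM per kb), between MGA and MNT at 8 kPa (6.604 CPM per kb) and above MGA at 30 kPa (7.579 against 7.161 CPM per kb).

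**Figure D1:**
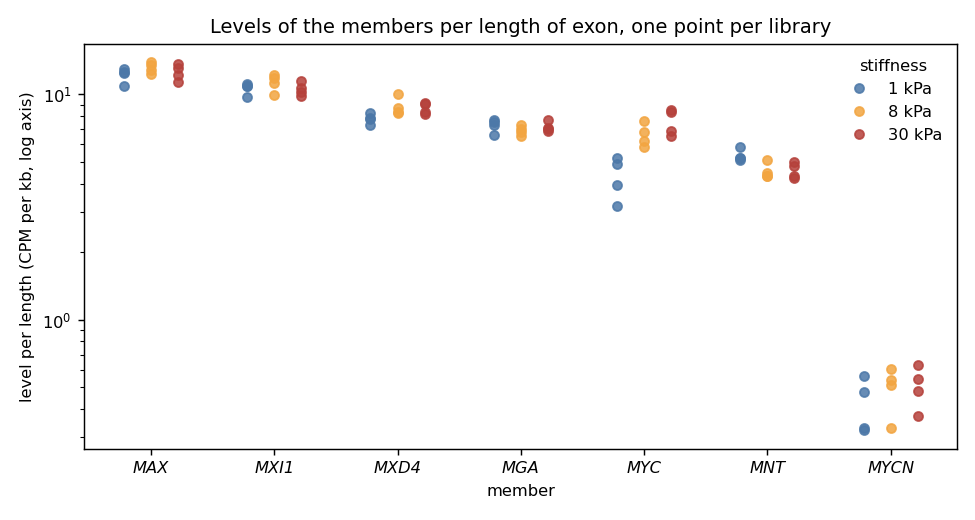
Level of each of the 7 genes per kilobase of exon (y axis, CPM per kb, log axis) in each of the 12 libraries, coloured by stiffness; genes run from the highest to the lowest mean. MYCN lies between 0.3222 and 0.6306 CPM per kb, below every value of the other 6 genes, and MYC spans 3.205 to 8.55 CPM per kb with all its 1 kPa libraries at the low end.

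MYC was the only member whose RNA passed the test of a difference between surfaces, higher at 8 and at 30 kPa than at 1 kPa. The 4 libraries (replicates 1 to 4) held 15.65, 9.618, 11.83 and 14.69 CPM at 1 kPa, 22.77, 18.55, 20.36 and 17.6 CPM at 8 kPa, and 25.66, 19.57, 25.15 and 20.6 CPM at 30 kPa. These values came from 134 to 232 counts per library at 1 kPa, 347 to 521 at 8 kPa and 465 to 702 at 30 kPa. Every 8 kPa and every 30 kPa library was above every 1 kPa library, as in 9.41% of all tested genes at 8 against 1 kPa and 5.33% at 30 against 1 kPa. The 30 and 8 kPa libraries overlapped, as they did for all 7 members, while 4.79% of tested genes were without overlap as higher and 6.5% as lower.

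MYC rose 1.52-fold at 8 kPa against 1 kPa, to 19.82 ± 2.28 CPM at 8 kPa, against 12.95 ± 2.75 CPM at 1 kPa (means ± SD of n = 4; log2 fold change 0.61, SE 0.141, 95% interval 0.30 to 0.91, adjusted p = 0.0164 in the edgeR quasi-likelihood test, adjusted by Benjamini-Hochberg over all tested genes). It was the only member of the 7 to pass in that comparison, where 13.8% of all tested genes passed and 8.17% passed as higher. At 30 kPa it stood at 22.74 ± 3.11 CPM, 1.75-fold above 1 kPa (log2 fold change 0.81, SE 0.139, 95% interval 0.51 to 1.11, adjusted p = 0.0125). MYC was again the only member to pass, against a background of 2.43% of tested genes passing and 1.1% passing as higher.

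Between 30 and 8 kPa the MYC difference did not pass (log2 fold change 0.20, 95% interval -0.08 to 0.49, adjusted p = 0.428). No member passed in that comparison, and edgeR called 0 of all tested genes (a background of 0%), with 3218 genes and 0 members at an unadjusted p under 0.05. DESeq2 called 430 genes, limma-voom 0. MYC passed the test for any difference among the 3 surfaces (adjusted p = 0.0159, 9.16% of genes passing), and its departure at 8 kPa from the mean of 1 and 30 kPa did not pass (log2 difference 0.20, 95% interval -0.05 to 0.45, adjusted p = 0.278). In that last test no member passed, beside 7.08% of tested genes, 4.42% as higher and 2.66% as lower. No member had an unadjusted p under 0.05 there, while 4938 of the 17960 tested genes did.

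Leaving out any of 3 libraries ended a MYC call. Without 8 kPa replicate 1 the 8 against 1 kPa change was 0.53 with an adjusted p of 0.0559, and without 8 kPa replicate 3 it was 0.59 with an adjusted p of 0.0565. Without 30 kPa replicate 3 the 30 against 1 kPa change was 0.76 with an adjusted p of 0.0601. Once a depth-class term was added, the changes were 0.81 (adjusted p = 0.0723) at 8 against 1 kPa and 1.08 (adjusted p = 0.444) at 30 against 1 kPa, and no gene of the table passed either comparison. In 8 kPa replicate 1, which was as shallow as the 1 kPa libraries, MYC stood at 22.77 CPM, above the highest 1 kPa library at 15.65 CPM. With all libraries thinned to one depth the changes were 0.63 and 0.85, with adjusted p of 0.0125 and 0.0075.

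**Figure D2:**
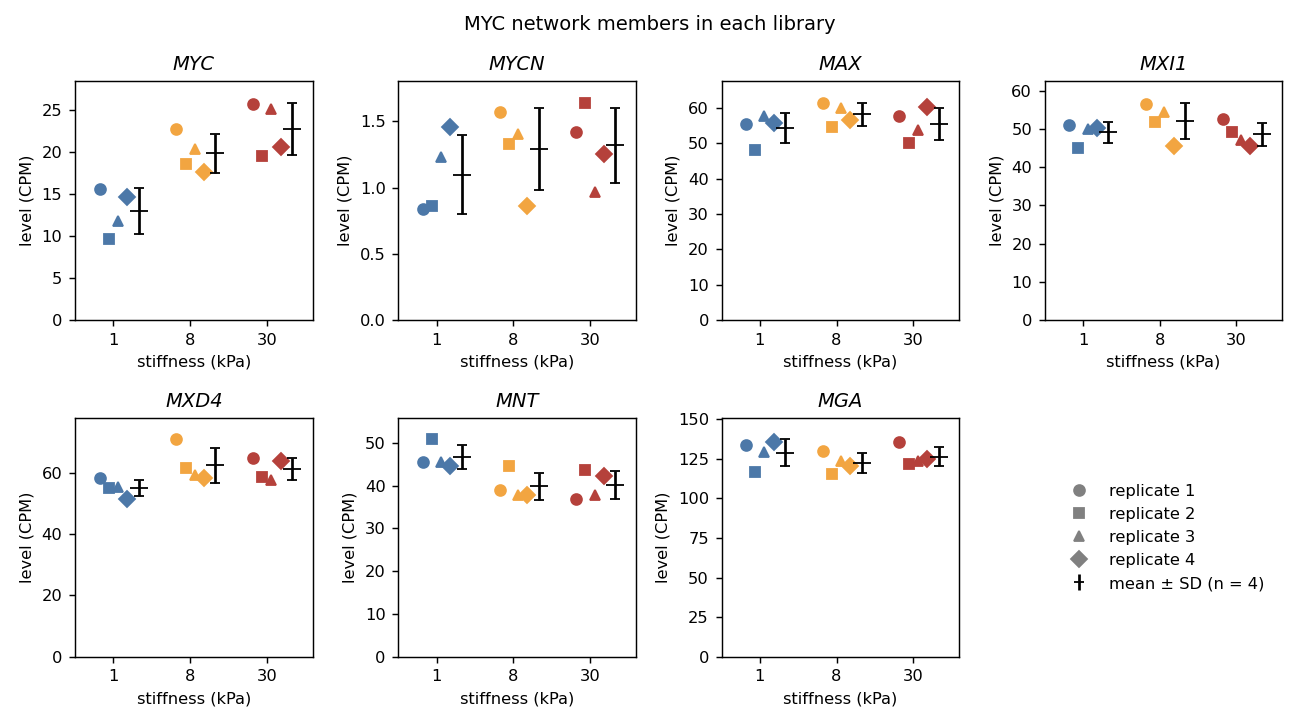
Level of each member (y axis, CPM, starting at 0) by stiffness (x axis, kPa) in each library, with marker shapes for replicates 1 to 4 and black bars for the mean ± SD of 4 libraries. The 4 MYC values at 1 kPa, 9.618 to 15.65 CPM, lie below all 8 others, the 4 MNT values at 1 kPa lie above all others, and the remaining members overlap between surfaces except MXD4 between 8 and 1 kPa.

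MYCN, the paralogue that drives many neuroblastomas when amplified, was barely expressed. It had 12, 12, 19 and 23 counts in the 1 kPa libraries, 24, 33, 36 and 21 in the 8 kPa libraries and 34, 39, 27 and 32 in the 30 kPa libraries. A count of 12 has an exact 95% Poisson interval of 6.2 to 21, and one of 39 an interval of 27.7 to 53.3, covering counting error only. The libraries of the 3 surfaces overlapped in CPM.

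Mean MYCN levels were 1.098 ± 0.3 CPM at 1 kPa, 1.292 ± 0.306 at 8 kPa and 1.32 ± 0.284 at 30 kPa (means ± SD of n = 4 per surface). The log2 fold change was 0.20 at 8 against 1 kPa (95% interval -0.35 to 0.75, adjusted p = 0.632), 0.04 at 30 against 8 kPa (adjusted p = 0.945) and 0.24 at 30 against 1 kPa (95% interval -0.30 to 0.78, adjusted p = 0.659). The intervals against 1 kPa include no change. They also include a change as large as that of MYC at 8 against 1 kPa, so a difference of that size was not excluded for MYCN. At 30 against 1 kPa the MYC change of 0.81 lay just above the MYCN interval. MYCNOS, an antisense gene that shares 98 exon bases with MYCN, had 9 counts over the 12 libraries and was not tested.

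Per kilobase, MYC exceeded MYCN in every library. The ratio of MYC to MYCN was 8.31 to 16.2 in the 1 kPa libraries, 12.1 to 17.8 in the 8 kPa libraries and 10.3 to 22.5 in the 30 kPa libraries, so the surfaces overlapped. MYC made up 10.4%, 7.22%, 8.1% and 9.97% of the summed per-kilobase level of the 7 members in the 1 kPa libraries, 13.5%, 12.2%, 12.9% and 12.1% in the 8 kPa libraries and 15.6%, 13.2%, 16.5% and 13.2% in the 30 kPa libraries. All 8 libraries on the stiffer surfaces exceeded all 4 at 1 kPa, as they did in MYC level itself, so this is no separate result.

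MYCL, the third MYC paralogue, also had few counts (8 to 55 per library), with 1.444 CPM at 8 kPa, against 0.7373 CPM at 1 kPa. It passed at 8 against 1 kPa (log2 fold change 0.95, SE 0.299, adjusted p = 0.0482), yet its libraries overlapped between those surfaces. The call was lost in 10 of the 12 fits that each left out a library, with log2 fold changes of 0.65 to 1.05 and adjusted p up to 0.162 (without 8 kPa replicate 3), and kept only without 1 kPa replicate 4 or 8 kPa replicate 4. PVT1, a long noncoding RNA gene beside MYC, did not follow MYC in its means, at 8.183 CPM at 1 kPa, 7.083 at 8 kPa and 9.036 at 30 kPa. PVT1 passed in none of the pairs, with an adjusted p of 0.342 at 8 against 1 kPa, 0.206 at 30 against 8 kPa and 0.615 at 30 against 1 kPa.

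MAX, the partner that the other members share, was close to level over the surfaces. It had 55.34, 48.23, 57.74 and 55.83 CPM at 1 kPa, 61.48, 54.53, 59.92 and 56.72 CPM at 8 kPa, and 57.87, 50.11, 53.85 and 60.35 CPM at 30 kPa. All 3 groups overlapped. The log2 fold changes were 0.10 at 8 against 1 kPa (95% interval -0.05 to 0.25, adjusted p = 0.366), -0.07 at 30 against 8 kPa (95% interval -0.21 to 0.08, adjusted p = 0.651) and 0.03 at 30 against 1 kPa (95% interval -0.12 to 0.18, adjusted p = 0.855). The antisense gene AL139022.1 shares 184 exon bases with MAX and had 213 counts over all libraries, against 14067 for MAX. Per kilobase, the ratio of MYC to MAX was 0.351 ± 0.0617 at 1 kPa, 0.502 ± 0.0363 at 8 kPa and 0.606 ± 0.0829 at 30 kPa (means ± SD of n = 4 per surface), with no 8 or 30 kPa library as low as the highest 1 kPa library at 0.418. With MAX close to level, this ratio largely restates the MYC values.

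**Figure D3:**
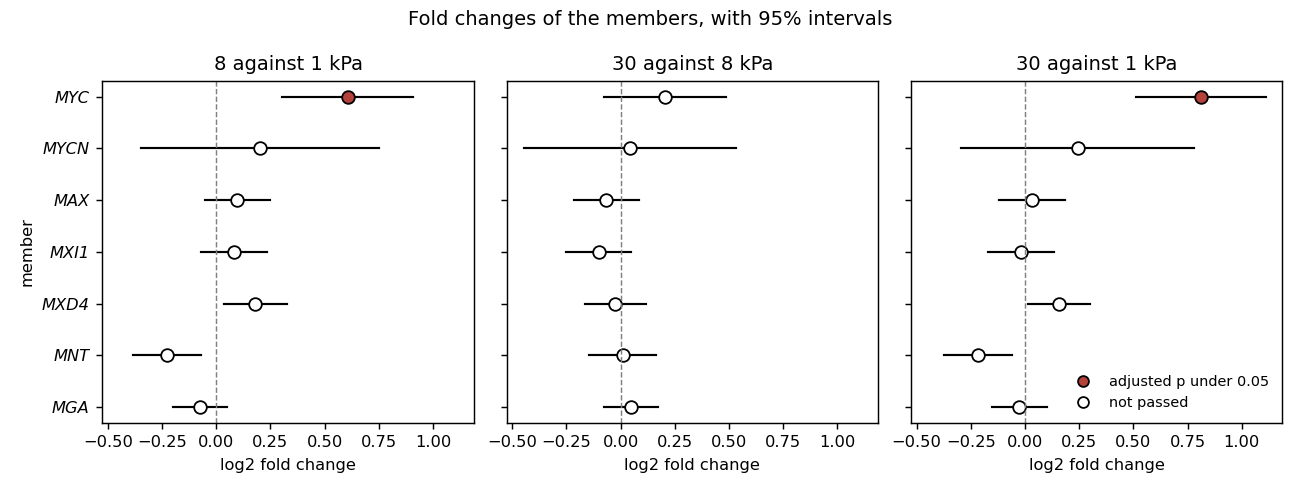
Log2 fold change (x axis) of each member (y axis) in each pair of surfaces, with 95% intervals from edgeR's quasi-likelihood test; filled points passed an adjusted p of 0.05. MYC is filled in the 8 against 1 kPa and 30 against 1 kPa panels, at 0.61 and 0.81, and no other point is filled; the widest intervals are those of MYCN.

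MXI1 and MXD4 belong to the MXD group, which competes with MYC for MAX. MXI1 had 51.15, 45.08, 50.07 and 50.33 CPM at 1 kPa, 56.49, 51.95, 54.49 and 45.63 CPM at 8 kPa, and 52.65, 49.1, 47.08 and 45.55 CPM at 30 kPa. Its groups overlapped, and its log2 fold changes were 0.08 at 8 against 1 kPa (adjusted p = 0.454), -0.10 at 30 against 8 kPa (adjusted p = 0.468) and -0.02 at 30 against 1 kPa (adjusted p = 0.931). The last of these turned positive once depth class was a term (0.14, adjusted p = 0.729), and was just above 0 with library size alone as the scaling (9e-04) and without the filter on low counts (0.0031).

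MXD4 had 58.27, 54.91, 55.4 and 51.53 CPM at 1 kPa, 70.86, 61.41, 59.25 and 58.36 CPM at 8 kPa, and 64.88, 58.74, 57.79 and 63.95 CPM at 30 kPa. Every 8 kPa library was above every 1 kPa library, as in 9.41% of all tested genes, and the 30 kPa libraries overlapped both. The log2 fold change was 0.18 at 8 against 1 kPa (SE 0.0677, 95% interval 0.04 to 0.33), with an adjusted p of 0.087 that did not pass. MXD4 did pass in this pair in the edgeR fit with the replicate number as a block (adjusted p = 0.0404). At 30 against 1 kPa the log2 fold change was 0.16 (95% interval 0.01 to 0.30, adjusted p = 0.223) and at 30 against 8 kPa -0.02 (adjusted p = 0.88).

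MNT is a widely expressed repressor that also pairs with MAX. It was lower on the stiffer surfaces by a margin that did not pass in the main edgeR fit. It had 45.63, 50.82, 45.52 and 44.63 CPM at 1 kPa, 39.04, 44.59, 37.87 and 37.81 CPM at 8 kPa, and 36.97, 43.59, 37.72 and 42.18 CPM at 30 kPa. The 4 libraries at 1 kPa had the 4 highest values, although 8 kPa replicate 2 at 44.59 CPM came close to 1 kPa replicate 4 at 44.63 CPM. Groups that did not overlap with the stiffer one lower made up 7.36% of tested genes at 8 against 1 kPa and 6.06% at 30 against 1 kPa.

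The MNT log2 fold change was -0.23 at 8 against 1 kPa (SE 0.0733, 95% interval -0.38 to -0.07, adjusted p = 0.0536) and -0.22 at 30 against 1 kPa (SE 0.0729, 95% interval -0.37 to -0.06, adjusted p = 0.125). At 30 against 8 kPa it was 0.01 (95% interval -0.15 to 0.16, adjusted p = 0.961). The 8 against 1 kPa difference lay at the edge of the threshold. Among the fits that took no account of the replicate number, it passed with DESeq2 (adjusted p = 0.0351), with a stricter filter on low counts (0.0429), without 1 kPa replicate 4 (0.0421) and without 8 kPa replicate 2 (0.0296). In the edgeR fit with the replicate number as a block, MNT passed at 8 against 1 kPa (adjusted p = 0.0145) and at 30 against 1 kPa (0.0353). That fit was an alternative, since not every same-numbered pair of libraries deviated together. The antisense gene AC006435.1 shares 1065 exon bases with MNT and had 103 counts over all libraries, against 10414 for MNT.

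Across libraries, the 4 with the lowest MYC level were the 4 with the highest MNT level. On each of the 3 surfaces, replicate 2 had the highest MNT and the lowest MAX and MGA level of its group, and replicate 1 the highest MYC, MXI1 and MXD4 level. As a description over 12 libraries that share depth and stiffness, Pearson's r of log2 CPM between MYC and MNT was -0.849, and -0.665 after the group means were removed. Library 1 kPa replicate 2 held both the lowest MYC value and the highest MNT value, and without it r was -0.758, and -0.546 with group means removed. For MYC and the other members, r over the 12 libraries was 0.669 with MXD4, 0.47 with MAX, 0.397 with MYCN, 0.362 with MXI1 and 0.183 with MGA. Without 1 kPa replicate 2 these were 0.66, 0.09, 0.173, 0.115 and -0.142, so on this measure all but the MXD4 value rested largely on that library. With group means removed the order differed. There r with MYC was 0.689 for MXI1, 0.57 for MAX, 0.309 for MXD4 and 0.184 for MYCN. Without 1 kPa replicate 2 these 4 were 0.584, 0.284, 0.402 and -0.039.

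MGA, which pairs with MAX within a complex that silences germline genes, had the highest counts of the members but a middle level per length. It had 133.5, 116.6, 129.2 and 135.5 CPM at 1 kPa, 129.8, 115.4, 123.8 and 120.2 CPM at 8 kPa, and 135.4, 122, 123.6 and 124.6 CPM at 30 kPa. The groups overlapped, and the log2 fold changes were -0.07 at 8 against 1 kPa (95% interval -0.20 to 0.05, adjusted p = 0.411), 0.05 at 30 against 8 kPa (adjusted p = 0.696) and -0.03 at 30 against 1 kPa (adjusted p = 0.86). Once depth class was a term, the first and last turned to 0.01 and 0.09. After group means were removed, MGA and MYC had an r of 0.847 over the 12 libraries and 0.728 without 1 kPa replicate 2, so that within a surface the libraries higher in MYC tended to be higher in MGA.

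**Figure D4:**
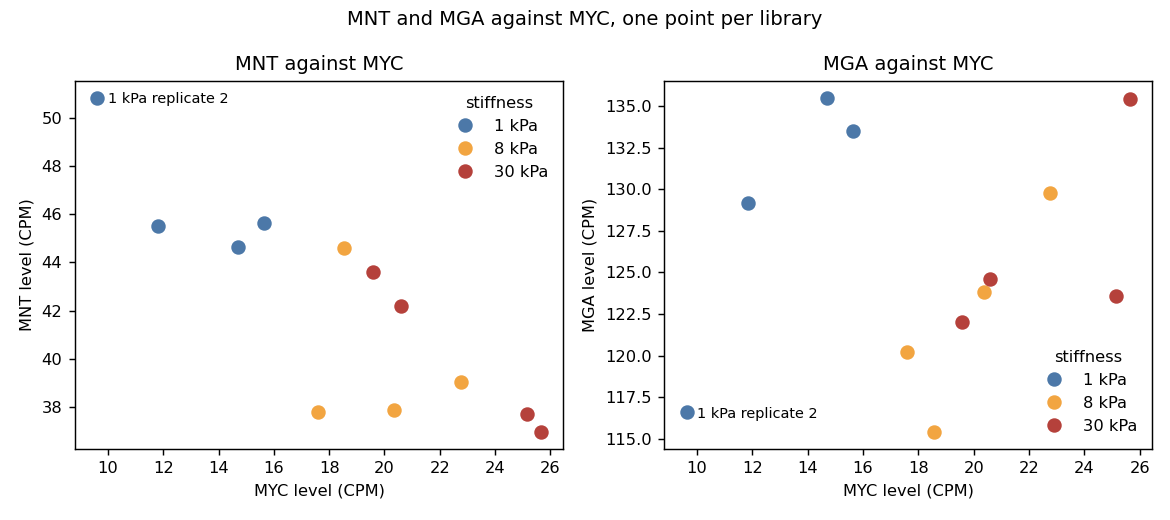
MNT level (left) and MGA level (right), both in CPM on the y axis, against MYC level in CPM on the x axis, with 1 point per library coloured by stiffness; axes do not start at 0. The 1 kPa libraries take the low-MYC, high-MNT corner, with 1 kPa replicate 2 at 9.618 CPM of MYC and 50.82 CPM of MNT, and within each colour MGA is higher where MYC is higher apart from single points.

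RefSeq promoter windows, from 250 bases before to 50 after a start site on GRCh38.p14, were used for 6 of the 7 members. Windows on the chromosome that carries MYC were left out, so MYC itself was not searched. Of the 6, MXD4 and MNT were the ones whose window holds the E-box letters CACGTG. The motif reads the same on both strands. With that chromosome left out, it occurs in 2396 of 27305 genes with a window (8.77%) and in 11.9% of the 12168 tested genes with one. Both windows are shown because these genes are themselves repressors that bind E-boxes. They also had the largest estimated differences among the 4 repressive members at 8 against 1 kPa, in opposite directions (MXD4 0.18, MNT -0.23). Neither passed in the main edgeR fit, and a link between the motif and these differences was not tested. Capitals mark the E-box letters. MXD4 is at chr4:2262060-2262359 on the minus strand, with the motif starting at -238 from the start site, and MNT at chr17:2401011-2401310 on the minus strand, with the motif at -193.
MXD4: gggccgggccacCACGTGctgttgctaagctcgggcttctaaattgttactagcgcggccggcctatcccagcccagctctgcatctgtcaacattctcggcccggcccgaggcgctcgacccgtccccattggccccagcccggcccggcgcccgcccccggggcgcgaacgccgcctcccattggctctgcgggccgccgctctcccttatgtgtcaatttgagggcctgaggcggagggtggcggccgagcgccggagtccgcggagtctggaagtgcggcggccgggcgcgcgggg
MNT: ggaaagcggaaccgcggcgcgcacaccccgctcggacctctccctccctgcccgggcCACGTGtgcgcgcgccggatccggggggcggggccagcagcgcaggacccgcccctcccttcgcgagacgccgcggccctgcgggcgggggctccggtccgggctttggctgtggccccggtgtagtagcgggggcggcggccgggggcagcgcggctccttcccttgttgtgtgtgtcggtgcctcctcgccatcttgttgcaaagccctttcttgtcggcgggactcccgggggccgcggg
The match describes these letters only. The windows of MYCN, MAX, MXI1 and MGA held no match, which says nothing of the factors that bind there.

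A set of 10 gene lists placed the members within their pathway, with 153 of 159 listed genes measured. At 8 against 1 kPa, 37 of the 153 rose and 0 fell, against 8.17% higher and 5.6% lower among all tested genes, and DESeq2 called 50 and limma-voom 35. At an unadjusted p under 0.05 there were 62 higher and 8 lower, against 16.6% and 14.6% of tested genes. The counts moved with single libraries: 14 rose when 8 kPa replicate 3 was left out, 16 when it was 8 kPa replicate 1, 21 when it was 1 kPa replicate 2 and 23 when it was 1 kPa replicate 3. Leaving out 1 kPa replicate 4 gave 47 that rose and 5 that fell, leaving out 8 kPa replicate 4 gave 36 and 4, and leaving out 8 kPa replicate 2 gave 32 and 1. Those that fell were in the lists of MYC cofactors, MYC protein stability, the MGA complex, MAX partners and MYC-repressed genes, and none of them was in the nucleolar or metabolic list. The calls over all tested genes moved too, from 534 to 3563 with a library left out, against 2472 in the main fit. Whether the lists moved more than the whole table was not tested, here or for the single lists below.

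At 30 against 1 kPa, 9 of the 153 rose and 0 fell, against 1.1% and 1.33% of tested genes, while DESeq2 called 23 and limma-voom 7. At an unadjusted p under 0.05 there were 43 higher and 11 lower, against 9.76% and 9.13%. With a library left out, 1 (without 30 kPa replicate 3) to 13 (without 1 kPa replicate 4) rose, and 1 gene of the protein stability list fell when 1 kPa replicate 2 was absent, when 30 kPa replicate 2 was, or when 8 kPa replicate 4 was. At 30 against 8 kPa, 0 passed with edgeR or limma-voom and 5 with DESeq2, and 7 were higher and 16 lower at an unadjusted p under 0.05, against 8.35% and 9.57%. Without 8 kPa replicate 4, 3 rose and 4 fell. Over all tested genes, 50 to 676 passed at 30 against 1 kPa with a library left out, and 1068 with DESeq2. At 30 against 8 kPa these were 0 to 1026 and 430. The comparisons share libraries in pairs, so their counts are not independent.

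Among the repressive partners of MAX and the branch of its relative MLX, none passed in any pair in the main edgeR fit. With DESeq2, MNT was the only 1 to pass, at 8 against 1 kPa. Some alternative edgeR fits called MNT or MXD4, as given above for these members. Of the 6 MXD, MNT and MGA genes, the median log2 fold change at 8 against 1 kPa was -0.04, against -0.01 for all tested genes, and 2 (MXD4 and MNT) had an unadjusted p under 0.05, as did 31.2% of tested genes. MXD1 ran from 11.96 to 16.4 CPM and MXD3 from 6.561 to 10.41 CPM over all libraries. MLX, which pairs with glucose-sensing factors rather than with MYC, ran from 58.97 to 66.68 CPM, and the 4 measured genes of its branch had a median of 0.02 at 8 against 1 kPa.

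The list of MYC cofactors held 5 genes that rose and 0 that fell among 24 at 8 against 1 kPa, with a median of 0.02. The share higher was 20.8%, against 8.17% of tested genes. RUVBL2 and RUVBL1, the paired helicase-like ATPases of chromatin and assembly complexes, rose by 0.37 (SE 0.0648, adjusted p = 0.00755) and 0.30 (SE 0.0593, adjusted p = 0.0107) on the log2 scale. RUVBL2 stood at 87.07, 81.82, 83.1 and 90.48 CPM at 8 kPa, against 64.35, 63.67, 68.4 and 68.05 CPM at 1 kPa, without overlap. SMARCB1, a core SWI/SNF subunit that can bind MYC, rose by 0.29 with overlapping libraries (adjusted p = 0.0266), and ACTL6A, an actin-related subunit, by 0.21 (adjusted p = 0.0299). RUVBL1 and RUVBL2 kept their calls whichever single library was left out, while SMARCB1 and ACTL6A lost theirs without any of 1 kPa replicates 1 to 3, 8 kPa replicate 1 or 8 kPa replicate 3 (adjusted p up to 0.0885 and 0.0896), and the list count was then 2.

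The 19 genes that control the MYC protein had a median of 0.10 at 8 against 1 kPa. Of these, 5 rose and 0 fell (26.3% higher, against 8.17% of tested genes). The mitotic kinases PLK1 and AURKA, which protect MYC or MYCN from degradation, were among them. PLK1 stood at 32.67, 27.33, 29.82 and 37.08 CPM at 8 kPa, against 21.03, 16.29, 20.42 and 25.76 CPM at 1 kPa, without overlap (log2 fold change 0.60, SE 0.122, adjusted p = 0.0109). AURKA rose by 0.45 (adjusted p = 0.0244) and STUB1, a ubiquitin ligase, by 0.22 (adjusted p = 0.0161). PLK1 kept its call in all 12 fits that left out a library. AURKA did not pass when 1 kPa replicate 2, 1 kPa replicate 3 or 8 kPa replicate 3 was left out (adjusted p up to 0.0644) and STUB1 without 8 kPa replicate 3 (adjusted p = 0.0658). Without 8 kPa replicate 3 the list count was 2, and without 1 kPa replicate 2 or 3 it was 3.

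Within the complex of MGA, 2 of 10 partners rose and 0 fell at 8 against 1 kPa, with a median of 0.11. The share higher was 20%, against 8.17% of tested genes. TFDP1, the dimer partner of E2F factors, stood at 82.41, 69.78, 75.16 and 81.36 CPM at 8 kPa, against 61.21, 56.06, 57.94 and 64.44 CPM at 1 kPa (log2 fold change 0.36, SE 0.0623, adjusted p = 0.00726). CBX1, a heterochromatin protein, rose by 0.43 (adjusted p = 0.0153), and lost the call without 8 kPa replicate 1 (0.37, adjusted p = 0.0561) or without 8 kPa replicate 3 (0.40, adjusted p = 0.0572). The list count was then 1, and it was 4 without 1 kPa replicate 4.

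Of 33 nucleolar genes known to be induced by MYC, 10 rose and 0 fell at 8 against 1 kPa. The share higher was 30.3%, against 8.17% of tested genes. The median of the list was 0.14, against -0.01 for all tested genes, and 28 of the 33 had a positive change. BYSL, a ribosome assembly factor, stood at 23.88, 24.27, 22.75 and 24.59 CPM at 8 kPa, against 19.56, 18.09, 19.96 and 19.69 CPM at 1 kPa (log2 fold change 0.30, SE 0.0595, adjusted p = 0.00968). IMP4, of the small-subunit processome, rose by 0.29 (adjusted p = 0.0111), NOLC1, a nucleolar phosphoprotein, by 0.28 (adjusted p = 0.0123) and MRTO4, a large-subunit assembly factor, by 0.29 (adjusted p = 0.0164). The first 3 kept their calls in all 12 fits that left out a library, and MRTO4 lost its call without 1 kPa replicate 3 (adjusted p = 0.0506). Leaving out 1 kPa replicate 1 gave a list count of 5, leaving out 1 kPa replicate 2 or 3 gave 6, and leaving out 8 kPa replicate 1 or 3 gave 4.

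Of 39 measured metabolic and growth genes known to be induced by MYC, 12 rose and 0 fell at 8 against 1 kPa, with a median of 0.21 and 30 positive changes. The share higher was 30.8%, against 8.17% of tested genes. SRM, the spermidine synthase, stood at 40.55, 37.51, 42.25 and 38.84 CPM at 8 kPa, against 27.74, 28.78, 28.87 and 30.45 CPM at 1 kPa (log2 fold change 0.46, SE 0.0658, adjusted p = 0.00521). DCTPP1, a dCTP pyrophosphatase, rose by 0.58 (adjusted p = 0.00713), SORD, sorbitol dehydrogenase, by 0.38 (adjusted p = 0.00521) and PHB1, a prohibitin of the mitochondrial inner membrane, by 0.36 (adjusted p = 0.0077). These 4 kept their calls in all 12 fits that left out a library. ODC1, the classical polyamine target of MYC, had a log2 fold change of 0.30 that did not pass (adjusted p = 0.068), and it is named here although its value had been seen. The list count was 7 without 1 kPa replicate 2 and 5 without 8 kPa replicate 1 or 3, and once depth class was a term no gene of any list passed in this pair or at 30 against 1 kPa.

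At 30 against 1 kPa fewer genes passed, from a background of fewer calls (1.1% of tested genes higher and 1.33% lower). The nucleolar list held 3 that rose and 0 that fell, BYSL by 0.35 (adjusted p = 0.0119), NOLC1 by 0.26 (adjusted p = 0.0429) and IMP4 by 0.25 (adjusted p = 0.0443), with a median of 0.15 against 0 for all tested genes and 29 of 33 positive. The metabolic list held SORD at 0.39 (adjusted p = 0.00596) and SRM at 0.28 (adjusted p = 0.0427), with a median of 0.14 and 35 of 39 positive, and DESeq2 called 10 of the 39. RUVBL2 rose by 0.29 (adjusted p = 0.0347), PLK1 by 0.56 (adjusted p = 0.0305) and TFDP1 by 0.26 (adjusted p = 0.0448).

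Of these 8 genes, SORD alone kept its call at 30 against 1 kPa in all 12 fits that left out a library. BYSL lost it without 30 kPa replicate 3 (0.33, adjusted p = 0.0601). PLK1 and RUVBL2 lost it in 6 of the 12 fits, TFDP1 in 8, IMP4 and NOLC1 in 9 and SRM in 10. All 6 lost it without 30 kPa replicate 3 (adjusted p of 0.0878 to 0.152) and without 1 kPa replicate 1 or 3 (0.0714 to 0.116), and 8 kPa replicate 4 was the only library whose absence ended none of these calls.

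Of 11 genes known to be repressed by MYC, 1 rose and 0 fell at 8 against 1 kPa, with a median of 0.00. That share of 9.09% was near the 8.17% of all tested genes that passed as higher. The gene was CDKN1C, a cyclin-dependent kinase inhibitor, at 3.346, 2.213, 2.58 and 1.719 CPM at 8 kPa, against 1.537, 0.8613, 1.17 and 1.583 CPM at 1 kPa (log2 fold change 0.90, SE 0.234, adjusted p = 0.0251), and it did not pass when 1 kPa replicate 2 (0.0758), 1 kPa replicate 3 (0.0655), 8 kPa replicate 1 (0.0719) or 8 kPa replicate 3 (0.0758) was left out. The list count was then 0, and it was 2 without 8 kPa replicate 4, while 2 genes fell without 1 kPa replicate 4. At 30 against 1 kPa none of the 11 passed with edgeR and 1 with DESeq2, with a median of -0.10. At an unadjusted p under 0.05, 1 was higher and 2 lower, against 9.76% and 9.13% of tested genes.

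**Figure D5:**
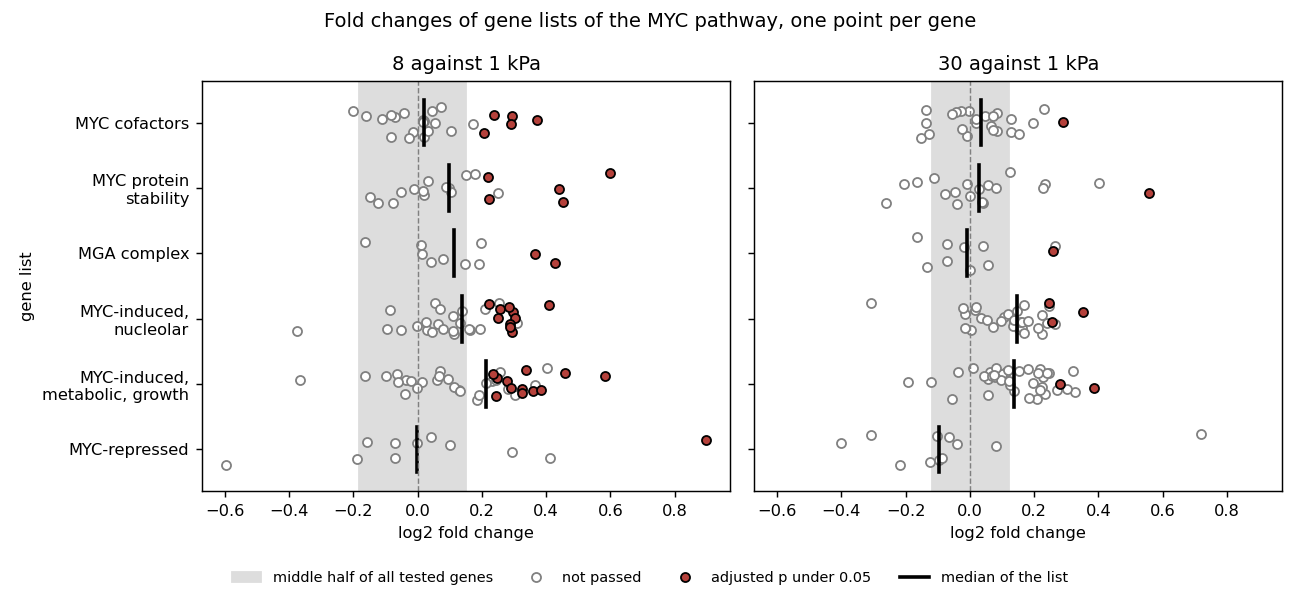
Log2 fold change (x axis) of each measured gene of 6 MYC pathway lists (y axis) at 8 against 1 kPa (left) and 30 against 1 kPa (right); the grey band spans the 25th to 75th percentile of all tested genes, black bars mark list medians and filled points passed an adjusted p of 0.05. All filled points lie right of 0, and the nucleolar and metabolic medians, 0.14 and 0.21 on the left and 0.15 and 0.14 on the right, are the 2 highest of the 6 in each panel.

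The E-box letters were present in 12 of 26 nucleolar genes with a promoter window (46.2%), 18 of 32 metabolic and growth genes (56.2%) and 0 of 5 MYC-repressed genes, beside 11.9% of tested genes with a window. List genes on the chromosome that carries MYC were left out of these counts too. Such lists were assembled in the field partly from MYC binding data, so these shares are not independent of the motif. Among the list genes that rose at 8 against 1 kPa, the letters were present in 4 of 8 nucleolar and 6 of 11 metabolic genes with a window. Of the 5 genes that rose in both comparisons from these lists (NOLC1, BYSL, IMP4, SRM and SORD), 3 held the motif and are shown with it in capitals. BYSL is at chr6:41921249-41921548 on the plus strand with the motif at 28 from the start site, IMP4 at chr2:130342647-130342946 on the plus strand with motifs at -203 and 15, and SRM at chr1:11059969-11060268 on the minus strand with the motif at -199.
BYSL: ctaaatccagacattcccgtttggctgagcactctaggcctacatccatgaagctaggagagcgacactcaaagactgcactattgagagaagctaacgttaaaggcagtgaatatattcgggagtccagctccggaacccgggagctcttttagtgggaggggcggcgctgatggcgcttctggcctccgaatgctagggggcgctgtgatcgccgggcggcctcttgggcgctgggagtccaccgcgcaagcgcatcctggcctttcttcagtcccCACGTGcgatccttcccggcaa
IMP4: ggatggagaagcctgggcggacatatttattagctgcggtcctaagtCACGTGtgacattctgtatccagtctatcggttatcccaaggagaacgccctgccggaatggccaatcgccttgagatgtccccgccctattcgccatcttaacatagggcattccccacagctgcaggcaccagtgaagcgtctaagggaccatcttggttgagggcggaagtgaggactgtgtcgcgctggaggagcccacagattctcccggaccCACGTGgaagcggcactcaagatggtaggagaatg
SRM: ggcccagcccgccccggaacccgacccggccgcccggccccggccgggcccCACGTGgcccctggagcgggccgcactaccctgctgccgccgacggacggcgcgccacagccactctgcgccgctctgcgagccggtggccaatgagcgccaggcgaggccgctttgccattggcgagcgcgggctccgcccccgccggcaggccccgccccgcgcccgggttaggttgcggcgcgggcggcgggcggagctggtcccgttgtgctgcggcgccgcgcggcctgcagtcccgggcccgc
RefSeq supplied these windows on GRCh38.p14. The motif lies on either side of the start site in this small set, and its presence is a match of letters, not a measured binding site.

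Genes whose pattern over the 12 libraries was most like that of MYC were ranked by Pearson's r of log2 CPM among 11674 genes with a symbol and a mean of at least 5 CPM. The highest were ADCYAP1R1 (0.967), the receptor of the neuropeptide PACAP, MYT1 (0.962), a zinc-finger factor of neural cells, C12orf29 (0.956), E2F8 (0.949), an E2F-family repressor of the cell cycle, and ELAVL2 (0.946), a neuronal RNA-binding protein. The lowest were CHIC1 (-0.964), COPA (-0.943), a coatomer subunit, YAP1 (-0.938), the Hippo pathway coactivator, ERMAP (-0.931) and EPM2A-DT (-0.928). With group means removed, r remained at 0.858 to 0.939 for the first 5 and -0.909 to -0.712 for the last 5.

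The closest genes to the other members were LBH (0.832) and DYM (0.826) for MYCN, CAMLG (0.976) and RAB7A (0.945) for MAX, YPEL2 (0.954) and PCDHB9 (0.947) for MXI1, TOLLIP (0.889) and ZNF658 (0.887) for MXD4, P4HA2 (0.948) and BTN2A1 (0.922) for MNT, and RBM12B (0.916) and CNOT4 (0.915) for MGA. These values are the extremes among many genes, over libraries that share depth class and stiffness, and are given as a description.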

How the data were processed

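Per the labels, total RNA of SK-N-SH cells was sequenced, and the submitters' processing notes name HISAT2 and GRCh38. Raw counts per Ensembl gene were deposited, made by the authors with a counter, annotation and strand setting not given in the sources used here. As the strand setting is unknown, reads of a member and of an antisense gene over the same bases cannot be told apart. Names were matched for 60463 of 60664 identifiers, and exon lengths came from GENCODE 29.

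In R 4.3.3, edgeR 4.0.16 (filterByExpr, TMM, quasi-likelihood F-test) was fitted to all 12 libraries with stiffness as the only term, and p-values were adjusted over 17960 genes by Benjamini-Hochberg with a threshold of 0.05. Each SE is the log2 fold change divided by the root of F, and intervals are 95%. The filter kept at least 99.87% of each library's counts, and TMM factors ran from 0.969 to 1.02. The fitting steps were tested on simulated counts. Libraries of a group were not duplicates: chi-square per gene between them was 2.62 or more.

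The members and the 10 lists were chosen with earlier results of these data known, so none of their patterns is independent support. Named were all members, up to 4 list genes with the smallest adjusted p that passed in a comparison, a few genes of the same locus or network, and the genes most like each member. Genes outside this rule are named as such, and some genes that it covers are not reported here. Alternatives were RLE scaling, library size alone, no filter, a filter of 1 CPM in 4 libraries, DESeq2 1.42.0, limma-voom (limma 3.58.1), a replicate block, a depth-class term, thinning to one depth, leaving out each library and fitting only the compared groups.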

Additional observations from a re-analysis of the deposited data

Results flagged for a closer look

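In 1 of 21 groups of 4 values (7 members on 3 surfaces), a library stood apart from the other 3 of its group. MNT in 1 kPa replicate 2 was at 50.82 CPM, with the nearest other 1 kPa library at 45.63 CPM, a gap of 0.839 of the group's range and just past the 95% critical value of Dixon's test. Chance alone marks about 1 in 20 groups. The same library held the lowest MYC value, 9.618 CPM, and without it the MNT log2 fold changes were -0.18 at 8 against 1 kPa (adjusted p = 0.153) and -0.17 at 30 against 1 kPa (adjusted p = 0.242).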

How the results depend on the processing

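The MYC change at 8 against 1 kPa was 0.60 to 0.81 on the log2 scale over 10 alternatives and 0.49 to 0.71 with a library left out, and at 30 against 1 kPa it was 0.81 to 1.08 and 0.70 to 0.91. Its calls were lost with the depth class as a term (0.8122 and 1.0843) and without the libraries named beside them. MNT at 8 against 1 kPa passed with the stricter filter (-0.2384), DESeq2 (-0.226) and the replicate block given below, with a range of -0.2862 to -0.1839 when a library was left out.

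Directions turned only where differences were small. With the depth class as a term these were MGA at 8 against 1 kPa (0.0116) and at 30 against 1 kPa (0.0891), MXD4 at 30 against 8 kPa (0.0395) and MXI1 at 30 against 1 kPa (0.139). MXI1 there was also 9e-04 with library size alone and 0.0031 without a filter, and MYCN at 8 kPa against the mean of 1 and 30 kPa was -0.1296 after thinning. With a library left out, the ranges that crossed 0 were MAX at 30 against 1 kPa (-0.0189 to 0.0772), MXI1 at 30 against 1 kPa (-0.0593 to 0.0112), MNT at 30 against 8 kPa (-0.0293 to 0.0694), MXD4 at 30 against 8 kPa (-0.0514 to 0.043), MYCN at 30 against 8 kPa (-0.1144 to 0.1709) and MYCN at 8 kPa against the mean (-0.0095 to 0.2345).

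The number of genes called was 2472 at 8 against 1 kPa, but 0 with the depth class as a term, 1068 with the 8 compared libraries alone and 534 to 3563 with a library left out. At 30 against 8 kPa it was 0, but 330 without a filter, 430 with DESeq2, 61 with the 8 compared libraries alone and 0 to 1026 with a library left out. At 30 against 1 kPa it was 437, but 263 with library size alone, 875 without a filter, 1068 with DESeq2, 0 with the depth class and 50 to 676 with a library left out. For the departure at 8 kPa it was 1272, but 2296 with DESeq2 and 0 to 2870 with a library left out. For any stiffness it was 1646, but 3117 with DESeq2, 0 with the depth class and 230 to 3234 with a library left out. The cause of these shifts was not tested.

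Replicate numbers are shared between surfaces, but the libraries were not treated as pairs, since not every same-numbered pair deviated together: their deviations correlated at -0.134 to 0.369, 6 of 12 pairs were over 0.1 (all 3 of replicate 2, at 0.179, 0.238 and 0.369) and 6 of 12 libraries correlated best with their own number. With the replicate number as a block, MNT passed at 8 against 1 kPa (-0.2297, adjusted p = 0.0145) and 30 against 1 kPa (-0.2181, adjusted p = 0.0353) and MXD4 at 8 against 1 kPa (0.1794, adjusted p = 0.0404), and the calls were 974 at 30 against 1 kPa, 40 at 30 against 8 kPa, 2096 for the departure and 2626 for any stiffness.

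The correlations without 1 kPa replicate 2 were chosen after seeing the data. Counts of 12 to 39 limit the precision for MYCN, depth and stiffness can hardly be told apart, and RNA levels say nothing of MYC protein.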
